A study of Mus musculus with 4 samples.

Results

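Zebrin stripe genes mark the parasagittal bands into which the Purkinje cells of the cerebellum are divided, and they are taken here together with transcription factors of the EBF family. The genes followed here are ALDOC, PLCB3, PLCB4, SLC1A6, HSPB1, EBF1, EBF2, EBF3 and KCTD12, and every probe on the chip that carries one of these symbols was taken. They are 9 of 30854 gene symbols and have 15 of 45281 probes, of which 13 were bright enough to be tested, out of 21726 tested probes on the whole chip. All 9 genes had a tested probe.

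RNA came from the anterior and the posterior cerebellar lobes of Swiss mice at postnatal day 7, with no treatment and no genetic modification named in the labels. There were 2 anterior and 2 posterior samples, each hybridised to its own Illumina MouseWG-6 array. The labels do not say whether a sample was 1 animal or a pool, nor whether the replicates came from separate animals. The p-values therefore measure only the spread between these samples, which may be technical.

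Purkinje cells look alike in shape but differ in their proteins, and the bands that contain zebrin II, which is the glycolytic enzyme aldolase C encoded by ALDOC, alternate with bands that lack it. PLCB3 and SLC1A6 go with the zebrin II bands and PLCB4 with the bands between them, while EBF2, a helix-loop-helix transcription factor, is found in Purkinje cells without zebrin II, where its loss is known to let zebrin genes appear. The adult pattern is not yet reached at this age. Bands of both kinds occur in each lobe, so RNA of a whole lobe averages over them, and the pattern of stripes was not resolved by these arrays.

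The signal of a probe is the mean brightness of its beads, given below as log2 after quantile normalization, and differences are posterior minus anterior. The median intensity before normalization was 129.6 and 110.2 on the arrays of anterior replicates 1 and 2, and 121.8 and 123.7 on those of posterior replicates 1 and 2. Between 46.5% and 47.6% of the probes on an array were detected, that is, had a detection p-value under 0.05. The members' probes were read from 21 to 65 beads each. With 2 arrays in each lobe, the number of arrays limits how precise any value can be. The smallest p of an exact permutation test (two-sided) in this design is 0.33, and the calls below therefore use limma's estimate of the spread, which draws on all probes.

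Of the 13 tested probes of these genes, 3 differed by more than 1.2-fold, the fold of the study's methods, with a p-value of limma below 0.05 before adjustment. The methods do not say whether their own p-value was adjusted, and their microarray section names no test. What is called the methods' t-test here is the Student's t-test of the paper's general statistics section, run on the quantile normalized log2 values. By it 0 of the 13 passed at the same thresholds, against 741 of 21726 or 3.41% of all tested probes. The combination of fold and unadjusted limma p is called the criterion below. EBF1 was higher in the posterior lobes, with 1 probe, and EBF2 was lower, with 2 probes. Over the whole chip 1802 of 21726 tested probes passed, which is 8.29%, with 3.30% higher and 5.0% lower in the posterior lobes. With the arrays set to a common 75th percentile in place of quantile normalization, the split over the whole chip turned from 716 higher and 1086 lower to 977 higher and 850 lower. After Benjamini-Hochberg adjustment over all tested probes limma called 0 of the 13 probes, the lowest adjusted p being 0.19, against 23 probes or 0.106% over the whole chip. At an unadjusted p under 0.05 limma gave 4 of the 13 probes, and 2185 of the 21726 tested probes over the chip. In 7 of the 13 probes the arrays of the 2 lobes did not overlap, with posterior above anterior in 4 and below in 3. Non-overlap occurred in 42.6% of all tested probes, so this count is near the background. The median difference over the 13 probes was -0.0019, and over all tested probes it was 0.0023.

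EBF2 showed the largest difference among the 13 tested probes. Its probe ILMN_1251248 had a log2 signal of 9.58 and 9.93 in anterior replicates 1 and 2 and of 8.75 and 9.0 in posterior replicates 1 and 2. Both posterior arrays lay below both anterior arrays, by more than the replicates of either lobe differed from each other. The deposited intensities behind these values were 828.1 and 911.6 in the anterior and 423.8 and 514.2 in the posterior samples, with standard errors over the beads of 21.6 to 37.9. The log2 difference was -0.88 (standard error 0.16, 95% confidence interval -1.28 to -0.47, adjusted p = 0.19 by limma), which is 1.84-fold higher in the anterior lobes. Only 75 of the 21726 tested probes, this one included, had a difference as low or lower.

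The other EBF2 probe, ILMN_2883606, gave 9.20 and 9.44 in the anterior and 8.78 and 8.84 in the posterior replicates. The lobes again did not overlap, and the difference had the same sign. It was -0.51 (standard error 0.13, 95% confidence interval -0.83 to -0.18, adjusted p = 0.32 by limma), or 1.42-fold higher in the anterior lobes. The bead signals of these probes come from the same RNA, so they are not independent replicates of the lobe difference. Fewer cells that express a gene and less of its RNA per cell cannot be told apart in such samples.

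EBF1, a close relative of EBF2 that binds the same kind of DNA site, lay on the other side. Its single probe ILMN_2707452 had a log2 signal of 9.78 and 9.55 in anterior replicates 1 and 2 and of 10.08 and 10.04 in posterior replicates 1 and 2. Both posterior arrays were above both anterior arrays, and the posterior pair lay close together while the anterior pair was further apart. The difference was 0.40 (standard error 0.12, 95% confidence interval 0.10 to 0.69, adjusted p = 0.39 by limma), a 1.32-fold higher level in the posterior lobes. In the ranking of all tested probes, 637 were at least as high.

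ILMN_1251248 of EBF2 passed the criterion whichever array was left out, while the other 2 probes lost their call without either posterior array. Without anterior replicate 2 all 3 probes passed. Without posterior replicate 1 only ILMN_1251248 passed, and EBF1 (difference 0.38) and ILMN_2883606 of EBF2 (-0.48) did not. Without posterior replicate 2 it passed together with ALDOC and 1 probe of EBF3, while EBF1 (0.41) and ILMN_2883606 (-0.54) again did not. Both differences stayed close to those with all arrays (0.40 and -0.51). Without anterior replicate 1 or 2 they moved more, to 0.52 or 0.28 for EBF1 and to -0.63 or -0.38 for ILMN_2883606. A fit without a posterior array takes the spread from the anterior pair alone. Over the chip the standard deviation of replicate 1 minus replicate 2 was 0.32 for anterior arrays and 0.20 for posterior ones. A call lost there does not show that the size rests on 1 posterior array. Without anterior replicate 1 all 3 passed even the adjusted p by limma, with 0.00073 and 0.011 for EBF2 and 0.014 for EBF1, but there 2538 of 21201 tested probes passed the adjusted p, against 23 with all arrays, and 22.1% passed the criterion. ILMN_1251248 also passed the adjusted p without normalization (0.034 by limma), where 123 probes over the chip did, and with the replicate number as a block (0.0034), where 588 did. Over all alternatives the adjusted p ran from 0.00073 to 0.999 for ILMN_1251248, from 0.011 to 0.999 for ILMN_2883606 and from 0.014 to 0.999 for EBF1. By the methods' t-test 0 of the 3 probes passed, and without normalization EBF1 did not. The signs of the 3 differences were the same in every alternative that was run.

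EBF3, the third relative measured here, had a pair of probes that disagreed in sign. ILMN_2422615 was bright, with 13.89 and 13.94 in the anterior and 14.06 and 13.97 in the posterior replicates. The posterior arrays were above the anterior ones, by 0.10 (standard error 0.060, adjusted p = 0.60 by limma), and by 0.06 to 0.15 when single arrays were left out, the least without posterior replicate 1. At a common 75th percentile it was 0.17, with an unadjusted p under 0.05 but less than 1.2-fold. ILMN_2714455 gave 10.82 and 10.96 in the anterior and 10.45 and 10.86 in the posterior replicates, so that the lobes overlapped. Its difference was -0.23 (standard error 0.15, adjusted p = 0.63 by limma). Without posterior replicate 2 it was -0.43 and passed the criterion, and without posterior replicate 1 it was -0.03, so its size rests on posterior replicate 1. No direction can be given for EBF3 from this pair of probes.

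**Figure D1:**
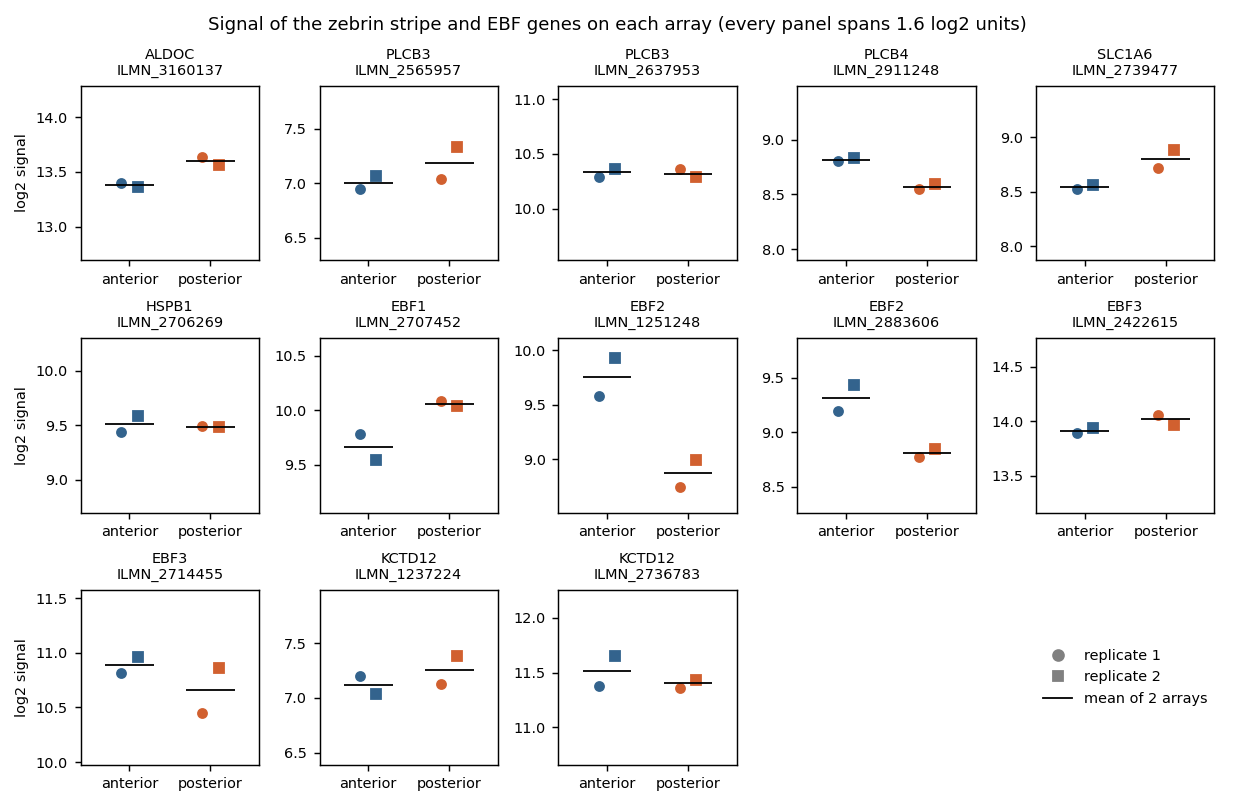
Log2 signal (vertical axis) of the 13 tested probes on each array, by lobe (horizontal axis). Circles are replicate 1, squares are replicate 2 and bars are the mean of the 2 arrays, and both EBF2 panels show posterior arrays below anterior ones while the EBF1 panel shows them above.

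ALDOC, the zebrin II gene, was bright on ILMN_3160137, with a log2 signal of 13.40 and 13.36 in anterior replicates 1 and 2 and of 13.64 and 13.56 in posterior replicates 1 and 2. Both posterior arrays were above both anterior arrays. The difference of 0.22 had a standard error of 0.062, a 95% confidence interval of 0.066 to 0.37 and an adjusted p of 0.36 by limma. Its unadjusted p was under 0.05, but the fold change of 1.16 was under the 1.2 of the criterion. With the arrays at a common 75th percentile the difference was 0.27, and without posterior replicate 2 it was 0.26, and in both cases ALDOC passed the criterion. Its unadjusted p was above 0.05 without normalization (difference 0.23), without the intensity trend (0.22) and without posterior replicate 1 (0.18). A second ALDOC probe, ILMN_2613349, was detected on no array, with detection p-values from 0.056 to 0.15, and was not tested.

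Aldolase C is also made by astrocytes and Bergmann glia. Of 9 tested genes that mark astroglia, 0 passed the criterion by limma, 1 had an unadjusted p under 0.05, and the median difference was 0.0044. The methods' t-test gave 0 by either measure. Their summed signal, on the linear scale after quantile normalization as for all sums below, was 107211 and 103107 in the anterior and 107990 and 102318 in the posterior replicates, with the glutamate transporter SLC1A3 brightest (difference 0.0044) and AQP4, a water channel of astrocytes, at -0.25. S100B, another defining marker, was not tested because it was too dim. The astroglial median was below 0 without normalization (-0.03) and with cyclic loess (-0.0074), and the astroglial count became 3 when anterior replicate 1 was left out and 1 when anterior replicate 2 or posterior replicate 1 was. The part of astroglia in the ALDOC signal was not tested.

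SLC1A6, the glutamate transporter of Purkinje cells known as EAAT4, gave 8.53 and 8.56 in the anterior and 8.72 and 8.88 in the posterior replicates on ILMN_2739477. The lobes did not overlap and posterior was above. The difference was 0.26 (standard error 0.12, 95% confidence interval -0.05 to 0.56, adjusted p = 0.55 by limma), and the interval includes 0. Without the intensity trend the unadjusted p was under 0.05, but the fold stayed under 1.2. The criterion was met under none of 14 alternatives, with values of 0.17 to 0.34 when single arrays were left out.

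PLCB3 and PLCB4 encode phospholipase C enzymes that act below the metabotropic glutamate receptor in complementary bands of Purkinje cells. PLCB4, on its single probe ILMN_2911248, had 8.81 and 8.83 in the anterior and 8.55 and 8.59 in the posterior replicates. The replicates of each lobe were close together and posterior lay below anterior. The difference was -0.25 (standard error 0.11, 95% confidence interval -0.53 to 0.03, adjusted p = 0.54 by limma), which is 1.19-fold higher in the anterior lobes and passed neither the fold nor the p of the criterion by limma. Its unadjusted p was under 0.05 by the methods' t-test and without the intensity trend, with the same difference.

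The brighter PLCB3 probe, ILMN_2637953, gave 10.29 and 10.36 in the anterior and 10.36 and 10.29 in the posterior replicates. The lobes overlapped fully. The difference was -0.0019 with a 95% confidence interval of -0.24 to 0.23 by limma, so a difference of more than 0.24 on the log2 scale in either direction lies outside the interval. At a common 75th percentile its sign turned, to 0.0059. The other probe, ILMN_2565957, was detected only on the arrays of anterior replicate 2 and posterior replicate 2 and is near background. It read 6.95 and 7.06 in the anterior and 7.03 and 7.33 in the posterior replicates, again with overlap, and its difference was 0.18 (standard error 0.13, adjusted p = 0.67 by limma). It was 0.12 without anterior replicate 1 and 0.33 without posterior replicate 1, and without replicate 2 of either lobe it was not tested.

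HSPB1, the small heat shock protein also called HSP25, forms bands of its own in the cerebellum. On ILMN_2706269 it gave 9.44 and 9.59 in the anterior and 9.49 and 9.48 in the posterior replicates. The lobes overlapped, and the difference was -0.03 (standard error 0.11, 95% confidence interval -0.31 to 0.25, adjusted p = 0.95 by limma). Without anterior replicate 2 its sign turned, to 0.05. Its other probe, ILMN_2515964, was detected on no array and was not tested.

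KCTD12, an auxiliary subunit of the GABA-B receptor, had 11.38 and 11.65 in the anterior and 11.36 and 11.43 in the posterior replicates on ILMN_2736783. The lobes overlapped, with anterior replicate 2 above the rest. The difference was -0.12 (standard error 0.11, adjusted p = 0.75 by limma), and without anterior replicate 2 it was 0.02. Its dim second probe ILMN_1237224, detected on all 4 arrays, gave 7.20 and 7.04 in the anterior and 7.13 and 7.39 in the posterior replicates. The lobes overlapped there too, with a difference of 0.14 of the other sign (standard error 0.13, adjusted p = 0.74 by limma). It was 0.01 without posterior replicate 2, 0.06 without anterior replicate 2, and leaving out replicate 1 gave 0.22 for the anterior and 0.27 for the posterior array. The 10 tested probes not past the criterion thus ran from -0.25 for PLCB4 to 0.26 for SLC1A6.

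**Figure D2:**
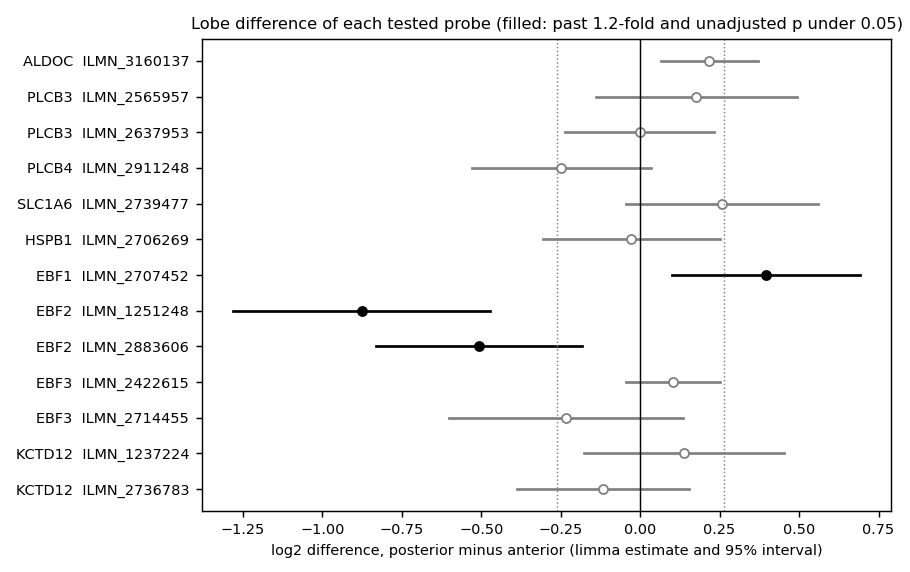
Log2 difference, posterior minus anterior, of each tested probe (horizontal axis) with its 95% confidence interval from limma, filled where it passed the criterion, with dotted lines at 1.2-fold. Only EBF1 (0.40) and the EBF2 probes (-0.88 and -0.51) are filled, and the intervals of those 3 and of ALDOC do not reach 0.

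Purkinje cells were checked through a list of 11 marker genes, of which 6 were tested. PVALB, a calcium-binding protein of Purkinje cells and interneurons, had a log2 signal of 14.42 and 14.48 in the anterior and 14.16 and 14.24 in the posterior replicates, and PCP2, which is nearly restricted to Purkinje cells in the cerebellum, had 14.07 and 14.06 against 13.91 and 13.98. Both were thus bright on all 4 arrays, with posterior below anterior. The differences were -0.25 for PVALB and -0.12 for PCP2 (-0.19 and -0.05 at a common 75th percentile), and neither passed the criterion. PVALB missed only its fold, with a 95% confidence interval of -0.39 to -0.11 by limma. Of the list 2 genes had an unadjusted p under 0.05 by limma and 1 by the methods' t-test. The probes of CALB1, PCP4 and CAR8, which are also Purkinje genes, were detected on no array, and SKOR2 and PPP1R17 are not among the symbols of the chip. Of the 6 tested genes 1 passed the criterion, the homeobox gene LHX5 with a higher posterior level (0.37, standard error 0.13, adjusted p = 0.44 by limma). LHX5 did not pass without anterior replicate 1 (0.25), without either posterior replicate (0.31 and 0.42), without normalization (0.34) or by the methods' t-test. PVALB passed without anterior replicate 1 (-0.28) and without posterior replicate 2 (-0.29), and the count of the list was 0 without posterior replicate 1. The list's median was -0.10, and it was -0.06 at a common 75th percentile. Their summed signal was 63324 and 65226 in the anterior and 57354 and 58940 in the posterior replicates, with PVALB brightest. EBF1, ALDOC and SLC1A6 were on the opposite side to this sum, and PLCB4 and EBF2 were on the same side. The part of the number of Purkinje cells in these differences was not tested.

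Of 16 further genes of Purkinje signalling, 10 were tested, and 1 was higher and 1 lower by the criterion. The median was -0.04, against 0.0079 over the brightest probes of all 15613 tested genes, of which 539 were higher and 695 lower. PRKCD, a protein kinase C, gave 9.08 and 8.99 in the anterior and 9.83 and 9.59 in the posterior replicates. Its difference was 0.68 (standard error 0.13, adjusted p = 0.20 by limma). RGS8, a regulator of G protein signalling abundant in Purkinje cells, gave 12.76 and 13.26 in the anterior and 12.27 and 12.36 in the posterior replicates. Its difference was -0.69 (standard error 0.16, adjusted p = 0.28 by limma). Neither gene had overlapping lobes. RGS8 was at -0.44 without anterior replicate 2 and did not pass by the methods' t-test, while PRKCD did. Without anterior replicate 1 the count of the list was 4 in place of 2. DAGLA and GABBR2 were too dim to be tested.

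Of 6 partners and relatives of the EBF proteins, all tested, 0 passed the criterion and 0 had an unadjusted p under 0.05 by limma or by the methods' t-test. Their median was 0.05. ZFP521, a zinc finger protein that binds EBF proteins, was at -0.13 (standard error 0.075) and the corepressor TLE1 at 0.09 (standard error 0.099). Without anterior replicate 1 the count was 2. Of 18 paralogs of the enzymes, the transporter, the chaperone and KCTD12, 10 were tested and 0 passed the criterion, and 0 had an unadjusted p under 0.05 by limma and 1 by the methods' t-test. Their median was -0.03. ALDOA, the aldolase of most tissues, was at -0.11 (standard error 0.12), while SLC1A3, also on the astroglia list, is given above. Without anterior replicate 1 the count was 1, and likewise 1 without anterior replicate 2.

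Of 14 genes that mark embryonic Purkinje clusters or compartments, 12 were tested, with 1 higher and 2 lower by the criterion. Their median was -0.04, and at a common 75th percentile it was -0.0043. CCK, which encodes the neuropeptide cholecystokinin, gave 9.26 and 9.68 in the anterior and 8.08 and 8.66 in the posterior replicates. Its difference was -1.10 (standard error 0.23, adjusted p = 0.24 by limma). EN1, an engrailed homeobox gene, gave 12.78 and 13.07 in the anterior and 12.48 and 12.41 in the posterior replicates. Its difference was -0.47 (standard error 0.11, adjusted p = 0.27 by limma), and its other probe was lower as well (-0.56). The adhesion gene CDH8 was at 0.37 (standard error 0.11, adjusted p = 0.39 by limma). Of its other tested probes, 1 was also past the criterion (0.41) and 1 was not (0.26). CDH8 did not pass without anterior replicate 2 (0.23), without either posterior replicate (0.35 and 0.39) or without normalization (0.36). By the methods' t-test 0 of the 12 genes passed.

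Whole lobes hold many other cells, and some of their markers differed between the lobes along with the genes above. Of 8 tested oligodendrocyte markers, all 8 were lower in the posterior lobes by the criterion, with a median of -0.92, and 3 passed the adjusted p. MAL was at -1.53, MOG at -1.42, MOBP at -1.14 and MAG at -0.99. Their summed signal was 76138 and 76104 in the anterior and 50741 and 48193 in the posterior replicates, with MBP, a myelin protein, brightest. Of 8 tested meningeal fibroblast markers, 5 were higher in the posterior lobes by the criterion and 0 lower by it, with a median of 0.51, and 1 passed the adjusted p. DCN was at 0.93, ALDH1A2 at 0.67, SLC6A13 at 0.56 and LUM at 0.51, though a dimmer LUM probe was at 0.16 and did not pass. The sum was 6625 and 7281 in the anterior and 10995 and 11900 in the posterior replicates, with DCN brightest, and FOXD1 was too dim to be tested. Without posterior replicate 2 only DCN of the fibroblast genes passed, with ALDH1A2 at 0.35 and SLC6A13 at 0.35, and LUM did not pass without posterior replicate 1 either. By the methods' t-test 7 oligodendrocyte genes and 1 fibroblast gene passed. The differences of EBF2 and PLCB4 had the sign of the oligodendrocyte markers and those of EBF1, ALDOC and SLC1A6 the sign of the fibroblast markers, and the part of these cells in the members' differences was not tested.

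EBF genes are also active in cells of the vessel wall. Of 7 tested mural markers, 0 passed the criterion, and 0 had an unadjusted p under 0.05 by limma or by the methods' t-test. Their median was -0.05, with ACTA2 brightest at 0.17 and MYL9 at 0.15, while 4 of the 7 were below 0. The lowest was RGS5, a pericyte gene named after its value was seen, at -0.56, with 7.82 and 9.05 in the anterior and 7.93 and 7.81 in the posterior replicates, so that anterior replicate 2 alone was high. The sum was 3781 and 4574 in the anterior and 4336 and 4188 in the posterior replicates, and TAGLN was too dim to be tested. Of 6 endothelial markers 0 passed, and 0 had an unadjusted p under 0.05 by either test. Their median was 0.06, with CLDN5 brightest at 0.06 and FLT1 at -0.14, and the sum was 9456 and 10748 in the anterior and 10269 and 10093 in the posterior replicates. Without anterior replicate 1 the counts were 1 mural and 2 endothelial genes, and without anterior replicate 2 there was 1 mural gene.

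Among neurons, 2 of 4 markers of unipolar brush cells were higher in the posterior lobes by the criterion and 0 lower by it, with a median of 0.28. CALB2 was at 0.37 and GRP at 0.52, and the sum was 12870 and 13722 in the anterior and 15946 and 15584 in the posterior replicates. Of 5 tested granule cell markers 0 passed and 0 had an unadjusted p under 0.05 by limma or by the methods' t-test, with a median of 0.04. ZIC1 was brightest at 0.17 and BARHL1 was at -0.30, ATOH1 was too dim to be tested, and the sum was 16639 and 15290 in the anterior and 16081 and 16318 in the posterior replicates. Of 4 tested markers of the cerebellar nuclei 0 passed, 1 had an unadjusted p under 0.05 by limma and 0 by the methods' t-test. Their median was -0.16, with SLC17A6 brightest at 0.26 and MEIS2 at -0.06, and 3 of the 4 were below 0. LHX9 was too dim to be tested. The sum was 13176 and 12221 in the anterior and 15565 and 13801 in the posterior replicates. It is mostly the signal of SLC17A6, whose mean log2 signal was 13.58, against 9.64 for MEIS2, the next brightest. At a common 75th percentile 1 nuclear marker passed. The granule count was 1 without anterior replicate 2 and 1 without posterior replicate 2, and the nuclear count became 3 when anterior replicate 1 was left out and 1 when replicate 2 of either lobe was.

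Of the choroid plexus markers, TTR, the most abundant transcript of that tissue, set replicates apart more than lobes. It had deposited intensities, before normalization, of 599.9 and 9501.9 in anterior replicates 1 and 2 and of 325.9 and 3777.6 in posterior replicates 1 and 2. It was high in replicate 2 of each lobe, and the lobes overlapped. CLIC6 passed the criterion at -0.89 with lobes that did not overlap, so the count was 1 of 2 tested genes, with a median of -1.0, and it was 2 without anterior replicate 1 and 0 without posterior replicate 1 or by the methods' t-test. CLIC6 was at -0.54 without anterior replicate 2 and -0.66 without posterior replicate 1. The sum was 1009 and 11083 in the anterior and 600 and 4060 in the posterior replicates, and FOLR1 and KCNE2 were too dim to be tested. Of 4 microglia markers 0 passed, and 0 had an unadjusted p under 0.05 by either test. Their median was 0.02, with CX3CR1 brightest at 0.03 and CSF1R at 0.00047, and the sum was 2241 and 1772 in the anterior and 2145 and 1929 in the posterior replicates. Of 3 erythroid genes 0 passed, and 0 had an unadjusted p under 0.05 by limma and 1 by the methods' t-test. Their median was 0.11, with HBB-B1 brightest at 0.11 and HBA-A1 at -0.03, and the sum was 27381 and 29002 in the anterior and 30058 and 28199 in the posterior replicates. Without anterior replicate 2 there was 1 erythroid gene past the criterion.

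**Figure D3:**
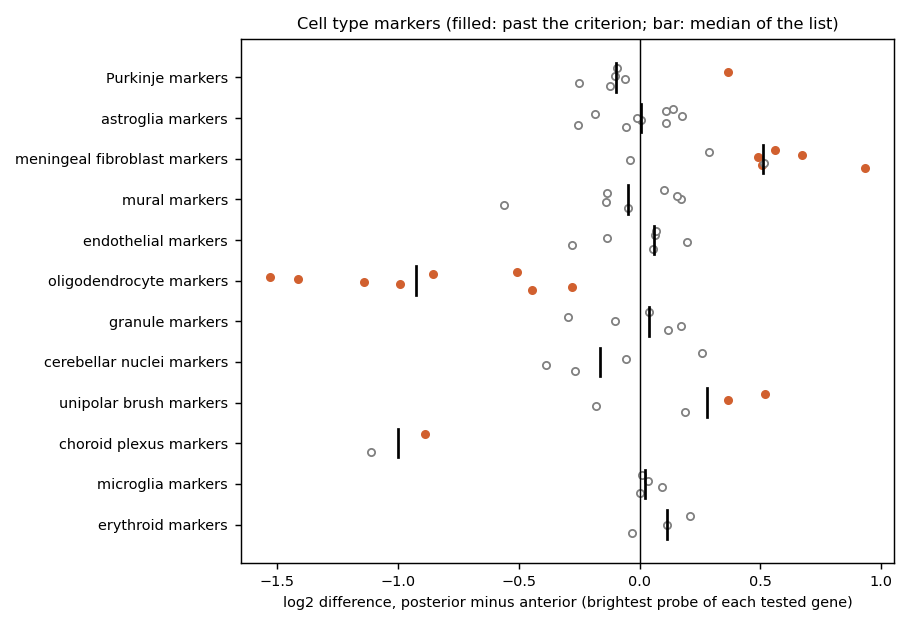
Log2 difference, posterior minus anterior, of the brightest probe of each tested marker gene (horizontal axis), by list of cell type markers (vertical axis), with filled points past the criterion and bars at the medians of the lists. All 8 oligodendrocyte markers lie below 0, with a median of -0.92, and the median of the meningeal fibroblast markers is 0.51.

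The probes whose pattern over the 4 arrays was most like that of the members past the criterion were taken from 19902 probes of other genes detected on all 4 arrays, by the Euclidean distance between log2 signals centred on their mean. Nearest to EBF1 were GINS2 at a distance of 0.021, ALG8 at 0.026 and EPHA3 at 0.036. For ILMN_1251248 of EBF2 they were CCDC88C at 0.12, SLC45A3 at 0.16 and a transcript with the chip symbol SCL0001905.1_3 at 0.18, and for ILMN_2883606 they were PRELP at 0.037, PLEC1 at 0.044 and SLC25A1 at 0.049. The 3 nearest probes of the EBF2 probes were different ones. With 4 arrays many probes can be close by this measure.

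EBF proteins bind as dimers to a palindrome, and the promoters of the genes were searched for its letters because members of this family are the ones past the criterion. Promoters are RefSeq windows of 250 bases before to 50 after a start on the mouse assembly GRCm38.p6, and 8 of the 9 genes have at least 1, with 11 windows in all. EBF2 was not matched. The core searched was CCCNNGGG, which reads the same on both strands, and the full motif was this core with T directly before it and A directly after it, so that every full match is also a core match. The full motif is in 297 of 32851 windows (0.904%) and in 0 of the 11. The core is in 4491 windows (13.7%) and in 3 of the 11, those of EBF3, SLC1A6 and ALDOC. The nearest surroundings of the core, cut off at the start, are shown for EBF3 and SLC1A6, where the match lies before the start, with the core in capitals. A match is a description of the letters and not of binding, and the ALDOC match lies after the start. The EBF3 stretch is chr7:137314446-137314502 on the minus strand, with 13 bases between the core and the start, and reaches the start, and that of SLC1A6 is chr10:78780382-78780461 on the plus strand, with 70 bases between them, and ends before the start.
EBF3: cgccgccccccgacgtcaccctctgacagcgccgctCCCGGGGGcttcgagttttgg
SLC1A6: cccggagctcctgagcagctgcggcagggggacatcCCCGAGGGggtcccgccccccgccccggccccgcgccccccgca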

How the data were processed

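RNA of 2 anterior and 2 posterior lobe samples was read on 1 array each. The authors deposited mean bead intensities of 45281 probes per array from GenomeStudio 1.9.0, not normalized between arrays, with the number and the error of the beads. The deposited detection scores, read as 1 minus the detection p-value, are a fraction, the share of negative controls that are dimmer than the probe. Columns were matched to samples by the sample numbers in the labels, and 16 other columns were not used.

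In R 4.3.3 the intensities were quantile normalized, floored at 1 as in the study's methods and log2 transformed. A probe was tested if 2 or more of the 4 arrays detected it at a p-value below 0.05, with limma 3.58.1 (lmFit, eBayes with an intensity trend), with Benjamini-Hochberg adjustment over all 21726. Every probe of a member is given on its own. For the other genes the brightest probe by mean log2 signal stands for the gene. Of each list up to 4 genes past the criterion with the largest difference are named, or, where fewer than 2 pass, the 2 brightest as well. Gene symbols are those of the chip, and all 9 members are RefSeq symbols of GRCm38.p6, whose promoter table was used for sequences. The members and the lists were chosen with earlier results of these data known. Some genes of the lists are not reported here by name.

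Alternatives were no normalization, a common 75th percentile, cyclic loess, neqc (offset 16), no filter, a filter at detection p below 0.01 or on all 4 arrays, no intensity trend, the replicate number as a block, the methods' t-test, the adjusted p as the criterion, and leaving out each array in turn.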

Additional observations from a re-analysis of the deposited data

How the results depend on the processing

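The count of 1802 probes past the criterion over the whole chip became 741 with the methods' t-test, 23 with the adjusted p, and 766 to 4677 when single arrays were left out. For the genes of the report the count of 3 probes became 0 with the methods' t-test, where 2 probes, of ALDOC and PLCB4, had an unadjusted p under 0.05, 0 with the adjusted p, and 1 to 3 without single arrays. It was 2 without normalization, where EBF1 did not pass, and 4 at a common 75th percentile, where ALDOC did. Over the whole chip 1763 of 21726 probes had an unadjusted p under 0.05 by the methods' t-test. ILMN_1251248 of EBF2 lost its call in 1 of the 14 alternatives other than the adjusted p, ILMN_2883606 in 3 and EBF1 in 4. When a lobe is left with 1 array, that array is assumed to vary like those of the other lobe. Calls without a posterior array, also those of the marker lists, thus rest on the wider spread of the anterior pair.

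Signs turned for PLCB3 on ILMN_2637953, at 0.0059 with the common 75th percentile and between -0.038 and 0.034 without single arrays, for HSPB1 between -0.10 and 0.046, and for KCTD12 on ILMN_2736783 between -0.25 and 0.018. The cause was not tested. At a common 75th percentile the median was -0.02 for Purkinje signalling, -0.02 for the paralogs and -0.03 for the mural markers. It was 0.09 for granule cell, 0.05 for microglia and 0.17 for erythroid genes.

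The replicate numbers are shared by the lobes, but nothing in the labels says that they mark an animal or a day. The difference between replicates 1 and 2 had a correlation of 0.46 across probes between the lobes. With the replicate block 2818 probes over the whole chip and the same 3 probes of the report passed the criterion, and ILMN_1251248 of EBF2 passed the adjusted p (0.0034 by limma, with a range of 0.00073 to 0.999 over its alternatives), as did 588 probes over the whole chip. Probes near background have little signal to show a difference. With neqc the dim probes ILMN_2565957 of PLCB3 and ILMN_1237224 of KCTD12 were at 0.30 and 0.24, and without normalization HSPB1 was at -0.06 and ILMN_2637953 of PLCB3 at -0.03, none of them past the criterion.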
